A study of Mus musculus with 12 samples.

Results

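Fibroblasts lacking the protein subunit of telomerase were compared with fibroblasts lacking its RNA subunit. The comparison used the 6 arrays of cultures titled mTERT KO G1 (1 to 3) and mTR KO G1 (1 to 3), chosen by title from 12 arrays in all. The mTERT KO cultures lack the gene of the reverse transcriptase (Tert) and the mTR KO cultures lack the gene of the telomerase RNA (Terc). The other 6 arrays were the wild types of each line, mTERT WT and mTR WT, with 3 cultures each, and they are used here to show how far the lines differed where telomerase was intact. All 12 were primary mouse embryonic fibroblasts from male C57BL/6J embryos of stage E12.5 to E14.5, without treatment, grown in serum-containing medium and taken at passage 5. Knockout embryos were G1, the first generation without telomerase, and each knockout culture belonged to a set with a wild-type littermate, so the knockouts of the lines were not littermates of each other. Line, litters and deleted gene therefore cannot be told apart in the knockout comparison alone.

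Telomerase adds telomere repeats to chromosome ends. Its reverse transcriptase copies a template carried within the RNA subunit, so loss of either removes the activity. Laboratory mice start with long telomeres, and losses appear over generations of breeding without telomerase. By its title, the study asked how loss of either subunit affects expression and the response to DNA damage.

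The cultures expressed fibroblast genes, and markers of some other cell types were detected too. All 13 of 13 fibroblast markers, among them the collagens Col1a1 and Col3a1, lay above background in both knockouts. Their mean log2 signal ran from 9.92 to 10.67 in mTERT KO and from 10.09 to 10.79 in mTR KO. Background means the level exceeded by 5% of 1035 probe sets of olfactory receptor genes, which was a log2 signal of 4.93 to 5.09 on the 12 arrays. All 11 macrophage markers were above background as well, at mean levels of 7.97 to 9.72 in mTERT KO and 7.98 to 10.05 in mTR KO. The 4 smooth muscle markers were all above background, at 10.93 to 11.58 in mTERT KO and 10.65 to 11.71 in mTR KO. By their mean over the knockouts, so were 3 of 4 cartilage, 3 of 4 adipocyte, 2 of 4 skeletal muscle and 1 of 5 epithelial markers. The 2 measured neural and Schwann markers were as well. None of 5 endothelial markers was above background, and the 1 measured erythroid marker was not. Values below are log2 signals, differences are mTERT KO minus mTR KO ± the standard error of the limma fit (n = 3 arrays a group), and in bulk cultures fewer cells of a type cannot be told apart from less RNA per cell.

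Tert was the only gene that passed adjustment between the knockouts in the fit of all 12 arrays. Its log2 signal was 4.99, 4.83 and 4.75 in the mTERT KO cultures, in order of their numbers, and 5.80, 5.69 and 5.80 in those of mTR KO. Each mTERT KO culture lay below each mTR KO culture, and 1 of the 3 mTERT KO values exceeded its array's background. Tert was lower in mTERT KO by 0.91 ± 0.08 (difference −0.91, 1.87-fold; limma, Benjamini-Hochberg adjusted p = 0.00929). With telomerase intact the lines were close, since Tert was at 5.72, 5.74 and 5.51 for mTERT WT against 5.79, 5.70 and 5.66 for mTR WT, which differ by −0.06 ± 0.08. The knockout difference exceeded the wild-type difference with an unadjusted p of 1.87e-05, which did not pass adjustment over all probe sets (limma, adjusted p = 0.404). The exact two-sided permutation p of the 6 knockout values was 0.1, the smallest that 3 against 3 allows. The call was lost in a fit of the 6 knockout arrays alone (limma, adjusted p = 0.0708). It was also lost without mTERT KO 2 (adjusted p = 0.101), mTERT KO 3 (0.0785), mTR KO 1 (0.0878) or mTR KO 3 (0.0956), with differences of −0.89 to −0.85.

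Terc could not serve as a check of the mTR KO label. It read 4.77, 4.64 and 4.86 in mTERT KO and 4.50, 4.73 and 4.57 in mTR KO, below background in every culture, and the wild types read 4.65 to 4.94. The groups overlapped, with a difference of 0.16 ± 0.10 (exact two-sided permutation p = 0.2).

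The sequence before the start of Tert is shown because Tert is the only gene called in the fit of all 12 arrays. It is the 250 bases upstream in RefSeq on GRCm38.p6, plus strand, at chr13:73626661-73626910. Capitals mark the GC box GGGCGG, searched on both strands, the letters bound by Sp1-type factors. The window holds it 2 times, on the other strand as CCGCCC, and 35.4% of 27025 genes with such a window hold the motif.
Tert: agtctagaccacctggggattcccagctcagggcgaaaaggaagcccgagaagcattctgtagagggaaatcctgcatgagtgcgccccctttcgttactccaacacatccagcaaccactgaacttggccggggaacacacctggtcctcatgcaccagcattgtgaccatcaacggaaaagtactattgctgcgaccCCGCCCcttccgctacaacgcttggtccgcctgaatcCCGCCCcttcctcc

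Among 28853 probe sets Tert was the 1 that passed at 5% (0.00347%), and the next smallest adjusted p was 0.99994. An unadjusted p under 0.05 was reached by 864 probe sets (2.99%), 457 higher in mTERT KO (1.58%) and 407 lower (1.41%). The groups did not overlap for 2091 probe sets (7.25%), 1135 higher (3.93%) and 956 lower (3.31%). The knockouts were more alike than the wild types by the same counts. There, 5 probe sets passed (0.0173%), 1956 had an unadjusted p under 0.05 (6.78%) and 13.1% did not overlap. Over the 17587 probe sets above background the differences had a standard deviation of 0.138 between knockouts and 0.220 between wild types. Whether these spreads differ was not tested. Membership of a knockout group held 10.7% of the variance among the 6 arrays, where 20% is expected if the cultures are exchangeable. The first principal component, with 46.8% of the variance, placed mTR KO 1 and mTERT KO 2 at its high end and mTR KO 3 and mTERT KO 3 at its low end, so it did not separate the genotypes.

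Apart from Tert, no gene below passed adjustment between the knockouts in the fit of all 12 arrays (limma, adjusted p = 0.99994 or above). Each gene is given with its values and unadjusted p. The named genes follow a rule of size and rank. Many of them stood apart in the same direction in the wild types of the lines. The 15 genes with the lowest moderated t, Tert among them, had a wild-type difference below 0 in 15 of 15. In 8 of these the wild types did not overlap either, while 7.14% of all probe sets were lower without overlap there. Of the 15 genes with the highest t, 13 had a wild-type difference above 0. In 7 the wild types did not overlap, while 5.91% of all probe sets were higher without overlap there. The moderated t uses the spread within the wild types too, so the ranking itself favours genes with little spread there. All 10 genes with the lowest and all 10 with the highest differences kept their sign in the wild types, where 47.8% and 52.2% of all probe sets lay below and above 0. Of 18 probe sets that differed by at least 1 log2 unit, 14 did not overlap, and 13 of those differed in the same direction by at least 0.5 between the wild types. Across probe sets above background the knockout and wild-type differences correlated at r = 0.313, a description, since knockouts and wild types of a line share litters.

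**Figure D1:**
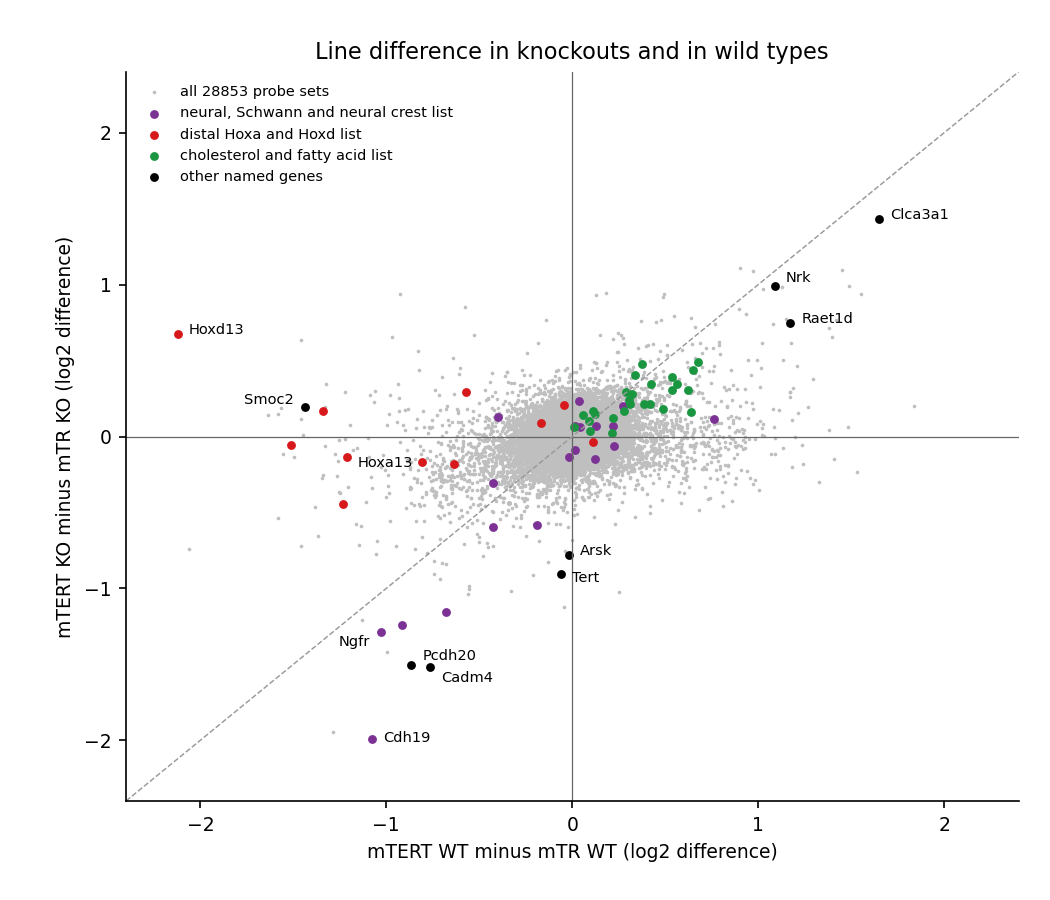
Each point is a probe set; the horizontal axis is the log2 difference mTERT WT minus mTR WT and the vertical axis mTERT KO minus mTR KO, with the dashed line marking equal differences. Cdh19, Ngfr and Cadm4 lie low on both axes and Nrk, Raet1d and Clca3a1 high on both, Tert and Arsk lie low on the vertical axis alone, and Hoxd13, Hoxa13 and Smoc2 lie low on the horizontal axis alone.

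Several genes of glia and neural crest read lower in mTERT KO. Neural crest cells migrate from the embryonic neural tube and give rise to Schwann cells, which wrap peripheral nerves. Of 19 measured genes in the neural, Schwann and neural crest list, 6 were lower in mTERT KO with an unadjusted p under 0.05, against 1.41% of all probe sets. The 6 did not overlap between the groups (3.31% of all probe sets were lower without overlap). In the other direction 0 were higher with such a p, and 1 was higher without overlap (3.93% of all probe sets). The list's median difference was −0.09 against 0.0048 over all probe sets.

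Cdh19, a cadherin of Schwann cell precursors, read 4.34, 4.35 and 4.30 in mTERT KO and 6.64, 6.04 and 6.28 in mTR KO. All 3 mTERT KO values were below background, so mTR KO was at least 2.50-fold higher; the measured difference was −1.99 ± 0.43 (unadjusted p = 0.000713). The wild types had Cdh19 at 4.29, 4.34 and 4.33 (mTERT) and 4.87, 6.77 and 4.55 (mTR), so only mTR WT 2 reached the level of the mTR KO cultures. The fold is taken against background where a group lay below it on every array, here and below.

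Ngfr, the low-affinity receptor of neurotrophins, read 5.04, 5.31 and 5.29 in mTERT KO and 6.62, 6.41 and 6.48 in mTR KO. The difference was −1.29 ± 0.31 (2.44-fold; unadjusted p = 0.00141), with −1.03 ± 0.31 between the wild types. Erbb3, the receptor through which neuregulin supports Schwann cells, read 4.70, 4.65 and 4.65 against 6.08, 5.62 and 6.04, at least 1.89-fold higher in mTR KO (unadjusted p = 0.00409). Both receptors were separated by more than the spread of either group.

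The transcription factors of the list were separated by less than Cdh19. Sox10, which specifies glial fate in the crest, read 5.10, 5.13 and 5.15 in mTERT KO and 5.86, 5.47 and 5.83 in mTR KO, a difference of −0.60 ± 0.19 (unadjusted p = 0.00963). Sox2, a factor of neural and glial progenitors, read 5.42, 5.24 and 5.17 against 6.57, 6.80 and 5.92, with −1.16 ± 0.40 (unadjusted p = 0.0155). Fabp7, a fatty acid binding protein of immature glia, lay below background in mTERT KO and was at least 1.18-fold higher in mTR KO (unadjusted p = 0.0406). S100b, Foxd3 and Gfap, also counted here as glial and crest members, overlapped between the groups, with differences of −0.09, −0.14 and −0.15. The other 10 members, mainly neuronal genes such as Tubb3, Dcx and Map2, had 0 with an unadjusted p under 0.05 and a median of 0.07. They include Scn7a and Ncam1, which differed by 0.13 and 0.20.

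The mean of the 9 glial and crest members read 4.91, 4.88 and 4.96 in mTERT KO and 5.76, 5.73 and 5.68 in mTR KO. The 9 were chosen by role after values were seen and hold all 6 genes with a low p. Their mean therefore restates those genes and is no separate result. For the wild types the same mean was 4.85, 5.05 and 5.14 (mTERT) and 5.24, 6.21 and 5.00 (mTR). The mTERT cultures of both genotypes were thus near 5, the 3 mTR KO cultures were higher, and among the mTR WT cultures number 2 was the highest of all 12. For none of the 6 genes did the knockout difference exceed the wild-type difference with an unadjusted p under 0.05 (0.161 to 0.561). This test took all cultures as independent although litters are shared within a line, so equal differences are not shown.

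**Figure D2:**
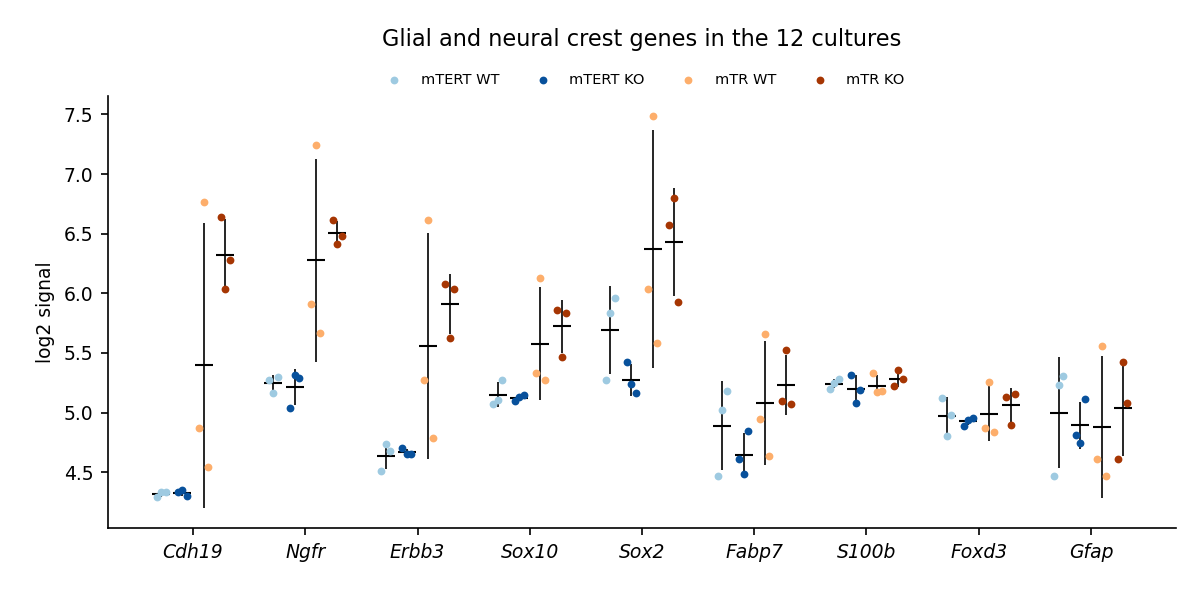
Log2 signal of the 9 glial and neural crest genes in each of the 12 cultures, 3 points a group, with horizontal marks for the group means and vertical lines for 1 SD. For Cdh19, Ngfr, Erbb3, Sox10, Sox2 and Fabp7 the 3 mTR KO points lie above the 3 mTERT KO points, and mTR WT 2 stands above the other wild types.

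The standard error of the Cdh19 difference was 0.43 with all 12 arrays and 0.14 without mTR WT 2. That array is not part of the knockout comparison, and its mean of the glial and crest members was the highest of all 12. Leaving it out removes spread from these same genes, so their calls depend on that choice and are no separate result. Leaving out each array in turn gave 0 to 8 calls in the knockout comparison. Without mTR WT 2, at the top of this range, 8 probe sets passed at 5%. They were Cdh19 (limma, adjusted p = 0.000556), Ngfr (0.00107), Tert (0.00831), Pcdh20 (0.0167), Erbb3 (0.0228), Slitrk6 (0.0228), Slc35f1 (0.0349) and a probe set with no gene name (0.000459). In the fit of the 6 knockout arrays alone 5 passed, namely Afap1l2 and Cadm4 (both 0.0174), Cdh19 (0.0201), Ngfr (0.0249) and the same unnamed probe set (0.0174). The calls without mTR WT 2 and those of the 6 arrays alone share 3 probe sets. The fit of all 12 arrays, which called Tert, shares 0 calls with the fit of the 6 arrays alone.

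Other genes that the rule names for low values in mTERT KO stand outside the list. Cadm4, an adhesion molecule of Schwann cells that contacts axons, read 4.77, 4.75 and 4.68 in mTERT KO and 6.27, 6.43 and 6.06 in mTR KO, at least 2.39-fold higher in mTR KO (unadjusted p = 0.00177). Its relative Cadm1 read 5.21, 5.60 and 5.54 against 6.80, 6.26 and 6.23, with a difference of −0.98 ± 0.24 (unadjusted p = 0.00166). The protocadherin Pcdh20 read 4.34, 4.35 and 4.65 against 6.08, 5.53 and 6.24, at least 1.94-fold higher in mTR KO (unadjusted p = 0.0005). All 3 had the 2 groups fully apart, and all 3 had lower means in mTERT WT than in mTR WT.

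Slitrk6, a membrane protein of neurites, was at least 1.85-fold and the transporter-like Slc35f1 at least 1.19-fold higher in mTR KO, with mTERT KO below background in all cultures. Afap1l2, an adaptor of Src-family kinases, read 5.16, 5.16 and 5.14 in mTERT KO and 6.09, 6.13 and 6.05 in mTR KO, the narrowest spread of this set, with a difference of −0.94 ± 0.22 (unadjusted p = 0.00138). Dtna and Sntb1, dystrobrevin and syntrophin subunits of the dystrophin complex, differed by 1.45-fold and 2.01-fold, lower in mTERT KO (unadjusted p = 0.000371 and 0.0174). Insc, which orients the division spindle, differed by −0.66 ± 0.16, the secreted olfactomedin Olfm1 by −0.38 ± 0.10 and the transporter Slc22a23 by −0.71 ± 0.17. Pax3, a factor of crest and muscle progenitors, had a difference of −1.02 ± 0.72 that came from 1 culture, since mTR KO 1 read 7.83 and the other 5 read 5.09 to 5.36.

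Other genes were higher in mTERT KO, and the leading ones were higher in mTERT WT too. Nrk, a kinase of embryonic and placental tissue, read 6.31, 6.34 and 6.30 in mTERT KO and 5.37, 5.00 and 5.62 in mTR KO. It differed by 0.99 ± 0.16 (1.98-fold; unadjusted p = 7.27e-05) and by 1.09 ± 0.16 between the wild types. Raet1d, a stress-induced ligand of the natural killer cell receptor NKG2D, read 8.38, 8.83 and 8.58 against 7.89, 7.88 and 7.80, with a difference of 0.75 ± 0.14 (unadjusted p = 0.000296). Raet1d passed in the wild types, where it differed by 1.17 ± 0.14 (limma, adjusted p = 0.0416), and the knockout and wild-type differences were not distinguished (unadjusted p = 0.06). Neither gene overlapped between the knockouts.

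Some of the named genes encode transcription factors. Of 59 patterning factors in the fixed list, 1 was higher and 2 lower with an unadjusted p under 0.05 (5.08% against 2.99% of all probe sets), with a median of 0.01. The higher one was Tbx2 (0.20), and the lower ones were Dlx2 (−0.39) and Nkx3-2 (−0.26). The factors that follow are not in that list. Tbx1, a factor of the pharyngeal arches, read 6.07, 6.35 and 6.05 in mTERT KO and 5.59, 5.73 and 5.69 in mTR KO (0.49 ± 0.10, unadjusted p = 0.000597). Gata6, a factor of heart and endoderm, read 7.11, 7.46 and 7.35 against 5.98, 6.40 and 7.02 (0.84 ± 0.26, unadjusted p = 0.00842), and Dmrt2, a factor of somites, read 6.62, 6.47 and 5.46 against 4.84, 5.10 and 5.28 (1.11 ± 0.40, unadjusted p = 0.0184). Hoxa2, which patterns the hindbrain and its arches, read 5.80, 5.65 and 5.55 against 5.18, 5.04 and 5.37 (0.47 ± 0.14, unadjusted p = 0.00626). Its wild-type difference was 0.04. Hoxa2 was the 1 of 10 anterior Hoxa and Hoxd genes with an unadjusted p under 0.05 (10% against 2.99%). For 0 of these 10, Hoxa2 included, did the knockout and wild-type differences depart from each other with such a p. The 3 factors Tbx1, Gata6 and Dmrt2 had wild-type differences of 0.68, 0.90 and 0.90.

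Secreted and membrane proteins made up most of the rest. The paired chloride channel regulators Clca3a1 and Clca3a2 differed by 1.43 ± 0.48 and 1.10 ± 0.45 (unadjusted p = 0.0123 and 0.0321), and as close paralogs their signals may not be separate. Clca3a1 read 6.58, 8.16 and 6.32 in mTERT KO and 5.61, 5.47 and 5.69 in mTR KO, so mTERT KO 2 was far above the rest. The matrix protein Spon2 differed by 0.76 ± 0.17 (unadjusted p = 0.000955), the elastic fibre protein Mfap4 by 0.94 ± 0.32 (0.0137) and Ptgis, which makes prostacyclin, by 0.78 ± 0.20 (0.00251). Gjb2, a gap junction protein, and the chemokine Ccl20 differed by 0.94 ± 0.40 and 0.92 ± 0.46 (unadjusted p = 0.0365 and 0.0734). The cytokine signalling inhibitor Cish and the small nucleolar RNA Snord33 differed by 0.46 ± 0.11 and 0.67 ± 0.18. Small differences without overlap were found for Sox4 (0.26), Gtf3c4 (0.24), Siva1 (0.23) and Eci1 (0.22), and these 4 had wild-type differences between −0.05 and 0.04.

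Genes of cholesterol and fatty acid synthesis read higher in mTERT KO. Cells build cholesterol from acetyl-CoA through mevalonate and squalene, and the factor SREBP-2 switches on the enzymes together when sterols are low. The difference was above 0 for 26 of 26 measured genes, where 52.2% of all probe sets were above 0, and the list's median was 0.22. An unadjusted p under 0.05 was reached by 7 of the 26, all higher, against 1.58% of probe sets, and 3 of the 26 did not overlap between the groups, against 3.93%. In the wild types all 26 were likewise above 0, with a median of 0.33 and 14 at an unadjusted p under 0.05 (2.85% of all probe sets were higher with such a p). For 0 of the 26 did the knockout difference depart from the wild-type difference with an unadjusted p under 0.05. That test did not use the littermate sets, so equal differences are not shown.

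The promoters of a pair of these genes are shown because all members of the list lay on one side of 0. Both are the 250 bases before the RefSeq start on GRCm38.p6, Hmgcs1 at chr13:119690101-119690350 on the plus strand and Msmo1 at chr8:64733579-64733828 on the minus strand. Capitals mark the CCAAT box, ATTGG on the other strand, and in Hmgcs1 also the sterol element TCACNCCAC. Each window holds CCAAT 3 times. The CCAAT box is present in 17 of the 20 list genes with such a window (85.0%) and in 37.5% of 27025 genes. The GC box GGGCGG, left in lower case here, is present in 16 of the 20 (80.0%) against 35.4%, and TCACNCCAC in 1 of the 20 (5.0%) against 1.22%. A motif match describes the letters and is no measured binding.
Hmgcs1: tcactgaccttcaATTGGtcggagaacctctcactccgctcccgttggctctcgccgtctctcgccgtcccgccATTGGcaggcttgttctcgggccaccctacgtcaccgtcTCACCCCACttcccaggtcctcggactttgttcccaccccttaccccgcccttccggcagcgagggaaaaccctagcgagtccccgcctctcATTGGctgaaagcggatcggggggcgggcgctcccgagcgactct
Msmo1: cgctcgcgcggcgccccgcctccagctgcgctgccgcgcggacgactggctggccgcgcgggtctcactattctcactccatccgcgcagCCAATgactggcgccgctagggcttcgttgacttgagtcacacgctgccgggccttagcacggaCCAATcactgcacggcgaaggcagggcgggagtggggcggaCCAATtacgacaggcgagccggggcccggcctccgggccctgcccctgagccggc

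By step of the pathway, Hmgcs1, the synthase that makes the precursor of mevalonate, read 9.57, 9.52 and 9.27 in mTERT KO and 9.49, 8.94 and 8.89 in mTR KO (0.35 ± 0.16, unadjusted p = 0.0481). Idi1, the isomerase of the isoprenoid units, read 9.44, 9.34 and 9.11 against 9.23, 8.49 and 8.70 (0.49 ± 0.20, unadjusted p = 0.0283). In both genes mTR KO 1 lay within the range of the mTERT KO cultures and the other 2 mTR KO cultures lay below it. Fdft1, the squalene synthase, read 8.84, 8.84 and 8.70 against 8.58, 8.20 and 8.42 (0.39 ± 0.11, unadjusted p = 0.0036). Lss, which closes squalene epoxide to lanosterol, differed by 0.40 ± 0.18 (unadjusted p = 0.0486). The late sterol enzymes Msmo1 and Sc5d read 11.15, 11.05 and 11.19 against 11.01, 10.76 and 10.71, and 9.59, 9.39 and 9.32 against 9.25, 8.99 and 9.02. Their differences were 0.30 ± 0.11 and 0.35 ± 0.11 (unadjusted p = 0.0196 and 0.00875), and with Fdft1 they were the 3 genes whose groups did not overlap.

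Of the regulators, Insig1, a sterol sensor partner induced with the pathway, differed by 0.31 ± 0.15 (unadjusted p = 0.0643), and Srebf2, the gene of SREBP-2, by 0.21 ± 0.15 (0.194). Among fatty acid genes the desaturase Scd2 differed by 0.29 ± 0.13 (unadjusted p = 0.043) and the synthase Fasn by 0.06 ± 0.12. The mean over the list was 8.63, 8.39 and 8.41 in mTERT KO and 8.49, 8.08 and 8.15 in mTR KO, so mTR KO 1 stood above mTERT KO 2 and 3. The count of 7 depended on the cultures and the fit. It was 14 without mTR KO 1 and 2 without mTR KO 2 or mTR KO 3. It was 3 without mTERT KO 1, and 4 without mTERT WT 2, without mTERT WT 3 or with the 6 knockout arrays alone. It was 13 with array weights and 15 with the replicate number as a block.

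**Figure D3:**
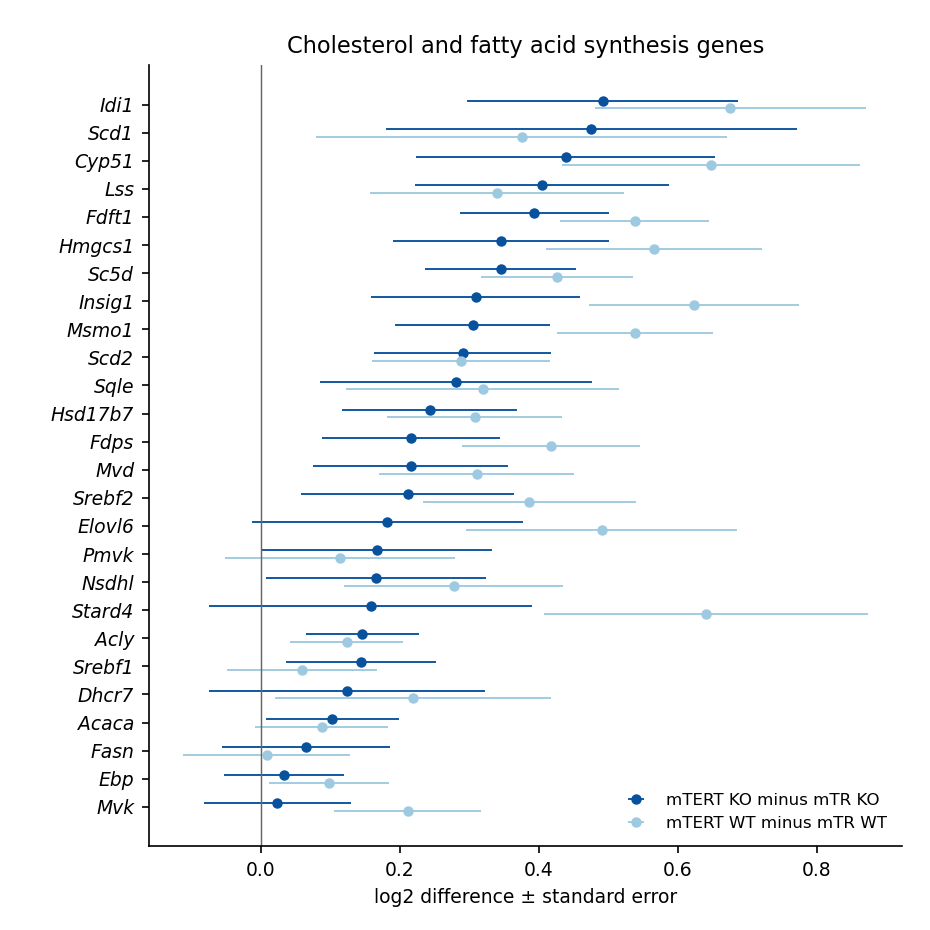
Log2 differences between the lines, with standard errors, for the 26 measured genes of cholesterol and fatty acid synthesis, in the knockouts (dark) and in the wild types (light). All points lie at or right of 0, from 0.02 for Mvk to 0.49 for Idi1 in the knockouts.

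Several genes near Tert on chromosome 13 read lower in mTERT KO. Gene order was taken from RefSeq on GRCm38.p6, counting measured genes, and the wider windows were chosen after values were seen. Among the 15 genes on each side of Tert, 3 of 30 were lower in mTERT KO with an unadjusted p under 0.05 and 0 were higher, 10% against 2.99% of all probe sets. Of the same 30, 16 had a difference above 0, and the median was 0.01. Among the 30 on each side, 9 of 60 were lower and 2 higher (18.3%), among 60 on each side 10 of 120 and 3 (10.8%), and among 120 on each side the share was 5.83%. Around Terc the shares were 3.33, 3.33, 3.33 and 2.5% for the same windows. Neighbouring genes are not independent samples.

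Arsk, a sulfatase of lysosomes and the 28th measured gene beyond Tert, read 6.91, 6.28 and 6.23 in mTERT KO and 7.43, 7.14 and 7.18 in mTR KO. It differed by −0.78 ± 0.17 (1.72-fold; unadjusted p = 0.000647), the wild types differed by −0.02, and the test of one difference against the other gave an unadjusted p of 0.00781. Cast, the calpain inhibitor and the 21st gene, read 9.65, 9.60 and 9.56 against 9.79, 9.96 and 10.12 (−0.35 ± 0.08, unadjusted p = 0.0009), with −0.08 in the wild types (difference tested, unadjusted p = 0.0304). Neither gene overlapped between the knockouts. Sdha, the flavoprotein subunit of respiratory complex II and the 15th gene, read 10.07, 9.80 and 9.83 against 10.33, 10.26 and 10.12 (−0.33 ± 0.08, unadjusted p = 0.00215), with −0.01 in the wild types (unadjusted p = 0.0207). Rfesd, the 27th gene, differed by −0.32 (unadjusted p = 0.00718), with −0.12 in the wild types. Its knockout and wild-type differences were not distinguished (limma, unadjusted p = 0.184).

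Other genes in the window differed between the wild types as well. Nkd2, an inhibitor of Wnt signalling and the 5th gene, read 6.01, 6.00 and 5.54 against 6.73, 6.51 and 6.64 (−0.78 ± 0.23, unadjusted p = 0.00577), and by −1.05 in the wild types. Exoc3, an exocyst subunit and the 12th gene, differed by −0.23 and −0.22. Ahrr, the 13th gene, went the other way, at 0.11 in the knockouts and −0.84 in the wild types (difference tested by limma, unadjusted p = 2.8e-05). Among the 15 genes on each side of Terc, on chromosome 3, 1 of 30, Gm10685, had an unadjusted p under 0.05 and lay below background in all 6 knockout cultures.

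**Figure D4:**
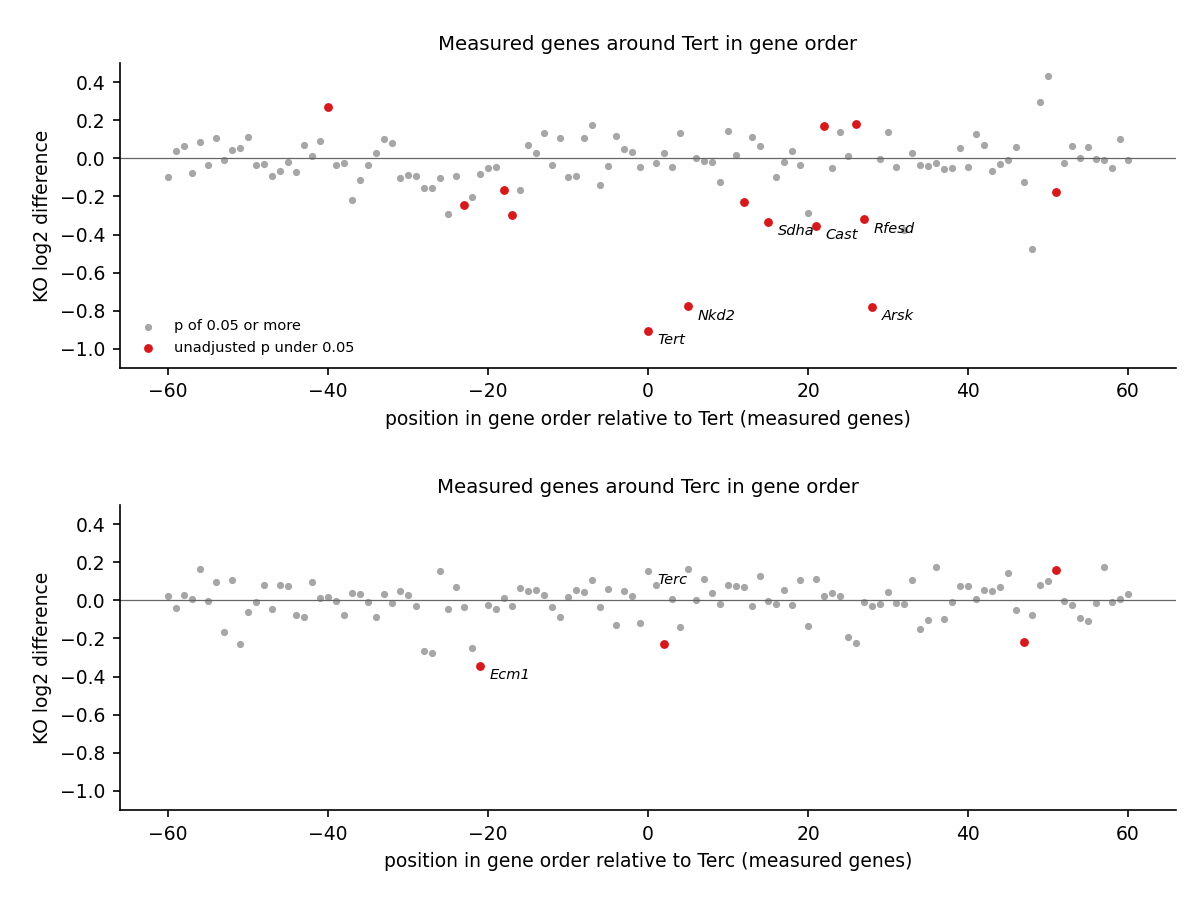
Log2 difference mTERT KO minus mTR KO of the 60 measured genes on each side of Tert (upper panel) and of Terc (lower panel), against the position in gene order. Points in red have an unadjusted p under 0.05; around Tert these are 10 lower and 3 higher besides Tert itself, around Terc 3 lower and 1 higher.

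Distal Hox genes differed more between the wild types of the lines than between the knockouts. The distal genes of the Hoxa and Hoxd clusters pattern the limb toward the digits. Of 11 measured, 0 had an unadjusted p under 0.05 between the knockouts, with a median difference of −0.03, while 2 of the 11, Hoxa10 and Hoxa11, were lower in mTERT KO without overlap (3.31% of all probe sets were). Their differences were −0.17 ± 0.18 and −0.44 ± 0.27. Between the wild types 10 of the 11 were lower in mTERT WT, with a median of −0.81. Of these, 8 had an unadjusted p under 0.05 (3.93% of all probe sets were lower with such a p). For 7 of the 11 the knockout and wild-type differences departed from each other with an unadjusted p under 0.05, against 3.34% of all probe sets, and 0 passed adjustment.

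Hoxa13, the most distal gene of its cluster, read 5.42, 5.58 and 5.47 in mTERT KO and 5.76, 5.66 and 5.44 in mTR KO, which overlapped (−0.13 ± 0.15). The wild types had it at 4.76, 5.08 and 5.26 (mTERT) and 6.24, 5.99 and 6.50 (mTR) (−1.21 ± 0.15; limma, adjusted p = 0.0416). The knockouts lay between the wild types, and the difference of the differences was 1.08 (unadjusted p = 0.00031). Hoxd13 read 7.29, 7.87 and 7.25 in mTERT KO and 7.93, 5.44 and 7.01 in mTR KO, so mTR KO 2 was far below the others (0.68 ± 0.57). Its wild types differed by −2.12 ± 0.57, and the difference of the differences was 2.80 (unadjusted p = 0.00514). Hoxd11 and Hoxd10 differed by 0.17 and −0.06 between knockouts and by −1.34 and −1.51 between wild types. The interval of the knockout difference is wide for these genes, so equal levels are not shown.

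**Figure D5:**
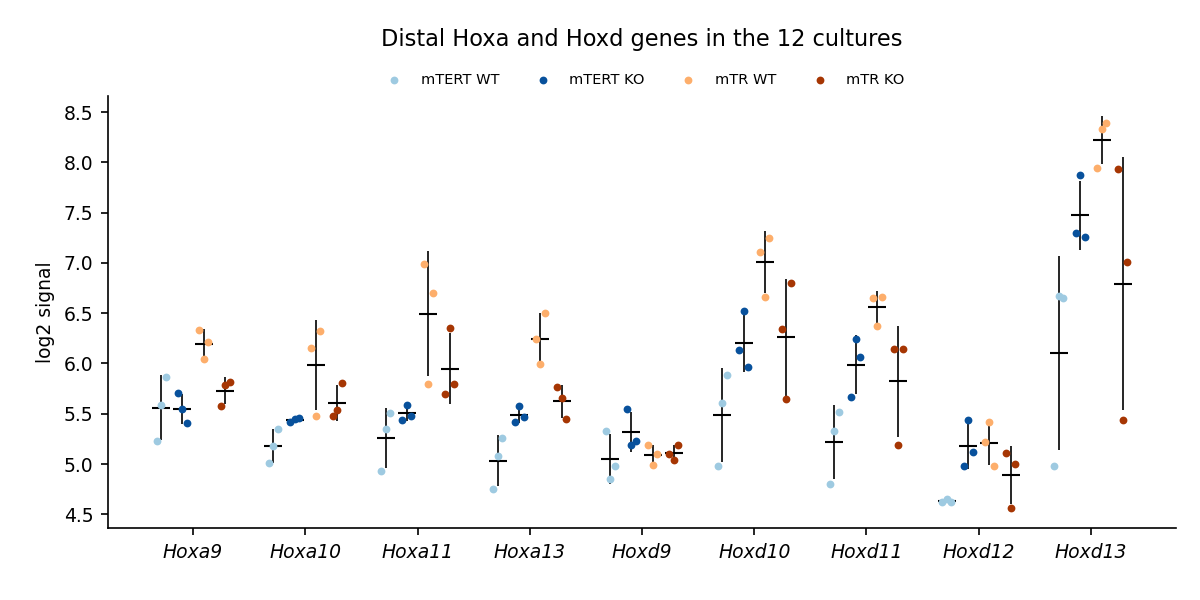
Log2 signal of 9 distal Hoxa and Hoxd genes in the 12 cultures, 3 points a group, with horizontal marks for the means and vertical lines for 1 SD. For Hoxa13 the mTR WT points lie above and the mTERT WT points below both knockouts, and for Hoxd13 mTR KO 2 lies at 5.44 beside 7.93 and 7.01 in the other mTR KO cultures.

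The same form was found for Smoc2, Ahrr and Pdk4, which the rank of the difference of differences selected. Smoc2, a matrix protein that modulates growth factor signals, read 7.46, 7.82 and 7.70 in mTERT KO and 7.28, 7.40 and 7.73 in mTR KO (0.19 ± 0.18). The wild types differed by −1.44 ± 0.18 (limma, adjusted p = 0.0416; difference of differences, unadjusted p = 4.46e-05, adjusted p = 0.429). Ahrr, the repressor of the aryl hydrocarbon receptor and a neighbour of Tert, differed by 0.11 ± 0.10 in the knockouts and −0.84 ± 0.10 in the wild types. Pdk4, a brake on pyruvate oxidation, differed by 0.14 ± 0.11 and −0.73 ± 0.11. In each of the 3 the knockouts overlapped.

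A pair of genes had differences of opposite sign in the knockouts and the wild types. Cd2ap, an adaptor of actin and endocytosis, differed by −0.16 ± 0.08 and 0.27 ± 0.08, and Plaat3, a phospholipase of lipid droplets, by 0.19 ± 0.09 and −0.43 ± 0.09 (unadjusted p of the difference 0.0019 and 0.000581). Neither passed adjustment.

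Telomere and telomerase factors other than Tert gave small differences. The telomerase list held 15 measured genes with a median of 0.05. Besides Tert, 1 had an unadjusted p under 0.05, the assembly factor Shq1, which guards dyskerin before it joins the RNA. Shq1 read 6.62, 6.49 and 6.65 in mTERT KO and 6.42, 6.44 and 6.16 in mTR KO (0.25 ± 0.09, unadjusted p = 0.0171; wild types 0.01). The 13 genes apart from Tert and Terc differed by −0.14 to 0.25, and their 95% intervals spanned −0.36 to 0.54. Dyskerin (Dkc1) and the trafficking factor Wrap53 differed by 0.05 ± 0.13 and 0.06 ± 0.08. Dkc1 read 8.69, 8.27 and 8.62 against 8.38, 8.66 and 8.38, and the groups overlapped.

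Shelterin and the CST complex cap telomeres and govern their replication. Of 17 measured genes 0 had an unadjusted p under 0.05, 8 differences were above 0 and 9 below, and the median was −0.0009. Differences ran from −0.12 for Atrx to 0.11 for Ctc1, with 95% intervals spanning −0.44 to 0.43. The duplex-binding proteins Terf1 and Terf2 differed by 0.05 ± 0.17 and −0.04 ± 0.10, and the single-strand binders Pot1a and Pot1b by 0.08 ± 0.13 and −0.05 ± 0.11. All 17 overlapped between the groups.

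The title of the study names the DNA damage response, and the counts for damage and repair genes lay near the background. Of 32 genes of DNA damage signalling and repair 1 had an unadjusted p under 0.05, Xrcc4 of end joining, at −0.18 ± 0.07 (3.12% against 2.99% of probe sets), and the median was 0.03. Among p53 and its targets 18 of 22 differences were above 0, with a median of 0.09. Here 2 of 22 had such a p, both higher (9.09% against 2.99% of probe sets). They were Btg2, which slows proliferation, at 9.01, 9.29 and 9.08 against 8.48, 8.88 and 8.72 (0.43 ± 0.14, unadjusted p = 0.0122), and the stress sensor Sesn2 at 8.56, 8.49 and 8.58 against 8.36, 8.33 and 8.12 (0.27 ± 0.11, unadjusted p = 0.0285). Mdm2 and Ccng1, direct targets of p53, differed by 0.00 ± 0.14 and 0.00 ± 0.12. Among 21 CDK inhibitors and senescence markers 1 had an unadjusted p under 0.05 (4.76% against 2.99%), the decoy receptor Tnfrsf11b at −0.24 ± 0.10. Cdkn2a differed by −0.05 ± 0.21.

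Proliferation genes were mostly above 0 by small amounts, with overlapping list means. Of 27 mitotic genes 25 were above 0, with a median of 0.07 and 0 with an unadjusted p under 0.05. Of 27 replication genes 22 were above 0, with a median of 0.07, and 1 had such a p. This was E2f2, a factor of S-phase entry, which lay below background in mTERT KO and was at least 1.07-fold higher in mTR KO. The mean of the replication genes read 7.54, 7.36 and 7.35 in mTERT KO and 7.65, 7.33 and 7.11 in mTR KO, so mTR KO 1 was the highest and mTR KO 3 the lowest of the 6 cultures.

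Matrix genes held members on both sides. Among 28 collagens 1 was higher and 2 lower with an unadjusted p under 0.05, 10.7% against 2.99% of all probe sets. Col18a1 and Col15a1, the basement membrane collagens that carry endostatin-type domains, were the lower ones. Col18a1 read 6.70, 6.92 and 6.87 against 8.07, 7.71 and 7.18 (−0.82 ± 0.24, unadjusted p = 0.00588), and Col15a1 read 5.48, 5.27 and 5.53 against 6.55, 6.36 and 5.72 (−0.79 ± 0.28, unadjusted p = 0.0164). Col4a5, a basement membrane chain, was higher at 8.07, 8.04 and 8.01 against 7.56, 7.67 and 7.88 (0.34 ± 0.11, unadjusted p = 0.0102). Of 37 proteoglycans, elastic fibre proteins and glycoproteins, 3 were lower with such a p and 2 higher, 13.5% against 2.99%. The higher ones were Mfap4 and Spon2. Ecm1 and Mfap5 differed by −0.34 and −0.68, and Spon1 lay below background in mTERT KO and was at least 1.09-fold higher in mTR KO. The wild types differed in the same direction for all of these 8 genes.

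Growth factor lists held counts near the background. Fgf5, a growth factor that ends the hair growth phase, lay below background in mTERT KO and was at least 1.74-fold higher in mTR KO (unadjusted p = 0.00917), 1 of 23 FGF genes (4.35% against 2.99% of all probe sets). Id3, an inhibitor induced by BMP signals, read 7.81, 8.08 and 7.67 against 8.11, 8.22 and 8.30 (−0.35 ± 0.11, unadjusted p = 0.00782), 1 of 33 genes of TGF-beta and BMP signalling (3.03%). Sox6, a cartilage factor, and Zfp423, a factor of fat precursors, differed by −0.44 ± 0.15 and −0.37 ± 0.13, and Dlx2, which patterns the jaw, by −0.39 ± 0.13. Gsta4 and Gstm1, glutathione transferases of the NRF2 list, differed by −0.82 ± 0.36 and −0.59 ± 0.26 with overlapping groups. The HoxB cluster had 8 of 9 genes above 0 and a median of 0.34, and 0 had an unadjusted p under 0.05. The mean of the cluster read 5.87, 6.00 and 6.23 in mTERT KO and 5.23, 5.74 and 6.17 in mTR KO, so mTR KO 3 lay among the mTERT KO cultures.

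Macrophage and interferon genes varied widely from culture to culture within both genotypes. The mean of 20 macrophage genes read 7.48, 9.22 and 9.09 in mTERT KO and 9.58, 8.94 and 7.62 in mTR KO, so each group held high and low cultures. Csf1r, the receptor that macrophages need to survive, read 7.62, 9.36 and 9.37 against 9.58, 9.04 and 7.77. The mean of 29 interferon-stimulated genes read 6.35, 7.48 and 5.91 against 7.34, 6.86 and 5.77. In both lists 0 genes had an unadjusted p under 0.05 and the medians were −0.13 and −0.06, while the wild-type medians were 0.81 and 0.78. The antiviral gene Ifit1 read 6.46, 8.55 and 5.22 against 8.45, 7.47 and 5.01 and differed by −0.23 ± 1.05. The 95% interval of the difference ran from −2.55 to 2.08 for Ifit1 and from −1.47 to 1.44 for Csf1r, so equal levels are not shown.

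Lists without a member at an unadjusted p under 0.05 between the knockouts included the endothelial and epithelial lists (15 genes each), skeletal muscle (23), smooth muscle and myofibroblast genes (17), imprinted genes (21), matrix proteases and their inhibitors (23), members and targets of NF-kB (27), targets of Myc with ribosome biogenesis (22) and Polycomb complex 1 genes (17). The median differences of these 9 lists lay between −0.06 and 0.06. Of 30 subunits of respiratory chain complexes I to III, Sdha alone had such a p (3.33% against 2.99% of all probe sets), and the median was 0.03.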

How the data were processed

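Each culture was measured on 1 Affymetrix Mouse Gene 1.0 ST array. The table deposited by the authors holds log2 signals per probe set. GCOS 1.4, Affymetrix Expression Console and PLIER are named, without a role, per the submitters' processing notes; normalization between arrays and the genome build are not given in the sources used here. Values were used as deposited and unfiltered, and quantiles of the 6 knockout arrays differed by at most 0.076. With 3 arrays a group, their number limits the precision.

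Of 28853 probe sets 21789 had 1 gene symbol, 1621 several and 5443 none. Means of the 4 groups, their differences and the difference of the line differences came from 1 limma fit (version 3.58.1, R 4.3.3) of the 12 arrays, moderated by eBayes and adjusted by Benjamini-Hochberg over all probe sets; the procedure was tested on simulated data. P-values measure the spread between cultures. The fit took the 12 cultures as independent and did not use the pairing of the mTERT line described below. A high p for the difference of the line differences does not show that the differences are equal.

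The comparison and the 50 gene lists (939 of 1009 entries of the fixed lists measured) were chosen with earlier results of these data known. Lists are described without a test. Named genes are Tert and Terc, the called genes, the 15 highest and 15 lowest moderated t, the 6 highest and 6 lowest for the difference of differences, the 10 largest and 10 smallest non-overlapping differences above background, and up to 6 members of a list with the smallest p. Rfesd, the most variable genes and list members named for their role were chosen after values were seen.

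Same-numbered knockout and wild-type cultures of the mTERT line deviated together (correlations of 0.674, 0.733 and 0.790 over 14426 brighter probe sets), as the littermate sets of the design text give it. Those of the mTR line did not, with correlations of −0.156, 0.289 and −0.377, so the values do not show which mTR cultures were littermates. Alternatives were the 6 arrays alone, blocks, quantile normalization, median centring, filters, variance models, array weights and leaving out each array.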

Additional observations from a re-analysis of the deposited data

How the results depend on the processing

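The knockout comparison gave 1 call in the fit of all arrays, 5 with only the 6 knockout arrays and 0 to 8 when 1 array was left out. It gave 1 call with the replicate number as a fixed block. Tert stayed between −0.97 and −0.85 when 1 array was left out, lost its call in 4 of these omissions, and lost it with the 6 arrays alone (−0.91, limma adjusted p = 0.0708). Same-numbered knockout cultures of the lines correlated at −0.114, −0.0226 and 0.332 in their deviations, so they share only a number. The wild-type comparison gave 5 calls, and 1 with its 6 arrays alone, 9 with the replicate block, 9 with array weights, 0 after quantile normalization, 0 with probe sets above background only and 0 to 11 on leaving out 1 array. The difference of the line differences gave 0 calls by limma throughout, with 965 probe sets at an unadjusted p under 0.05; the 6-array alternative does not exist for it. The count of 7 cholesterol genes became 4 with the 6 arrays alone, 15 with the replicate block, 13 with array weights and 2 to 14 on leaving out 1 array. The median of the neural list lay between −0.13 and −0.020 on leaving out 1 array. The count of 7 distal Hox genes became 6 under the replicate block and 5 to 9 on leaving out 1 array. Counts of list members under these settings were chosen after seeing the data. Of 325 genes named by the rule besides Tert and Terc, 60 had a difference on both sides of 0 over the omissions of 1 array. For 6 of them the difference in the fit of all arrays was larger than its standard error. Of these, Mcm6 ran from −0.014 (without mTR KO 3) to 0.39, Adamts12 from −0.47 to 0.008 (without mTR KO 3), Erg from −0.027 (without mTERT KO 2) to 0.50, Fgfr2 from −0.046 (without mTERT KO 2) to 0.34, Hoxb6 from −0.025 (without mTR KO 1) to 0.78 and Fzd6 from −0.010 (without mTR KO 1) to 0.69. In all, 242 of the 325 moved by over 1.5 times in some omission. The cause of these shifts was not tested. With 3 arrays a group the exact test cannot go below 0.1.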

Other observations

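The genes that varied most among the 6 knockout cultures did so within both genotypes. Cxcl5, a chemokine that attracts neutrophils, read 7.53, 9.99 and 4.95 in mTERT KO and 9.31, 7.92 and 5.51 in mTR KO, with a standard deviation of 2.00 over the 6 cultures and a difference between genotypes of −0.09. Pdgfra, the receptor that marks mesenchymal cells, read 9.44, 9.43 and 6.21 against 9.98, 7.70 and 7.16. The collagen-binding proteoglycan Lum read 9.03, 10.09 and 6.56 against 9.78, 6.75 and 6.84, and Sfrp2, a secreted Wnt modulator, read 7.50, 7.22 and 4.78 against 8.79, 5.13 and 5.13. Des, the muscle intermediate filament, read 8.18, 7.40 and 9.32 against 5.70, 8.23 and 9.30, highest in culture 3 of both genotypes.

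The angiotensin receptor Agtr2 read 8.14, 7.86 and 4.88 in mTERT KO and 8.95, 6.10 and 5.46 in mTR KO. The pentraxin Ptx3, an innate immune protein, read 8.69, 9.47 and 6.68 against 10.72, 7.85 and 7.48. In both genes mTERT KO 3 was the lowest of its group and mTR KO 1 the highest of all 6. The acute-phase gene Saa3 stood apart in 1 culture, at 8.83 in mTERT KO 2 and 5.20 to 5.76 in the other 5.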
